A study of Mus musculus with 22 samples.

Results

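Mouse embryonic stem cells depleted of the ribosomal protein Rpl14 were compared with and without a second small interfering RNA (siRNA) against Rpl11. The libraries were chosen by their labels: 2 libraries of siRpl14+siRpl11 and 2 of siRpl14 in one table (set 1), and 1 library of siRpl14+siRpl11 and 2 of siRpl14 in another (set 3), 7 of the 22 libraries in all. All came from E14 cells, an embryonic stem cell line kept on gelatin with leukemia inhibitory factor, and RNA was taken 3 days after transfection. No genotype, transgene or sorting step is given for any group. The siRpl14 cells and the siRpl11 cells each received siNT as the partner siRNA, and siNT cells received siNT alone; NT is not spelled out, and siNT is treated as the control. Below, siRpl14+siRpl11 is called the combined knockdown. Set 1 also holds 2 libraries of siRpl11 and 2 of siNT, which entered the same fit. The fit of set 3 also took in its siRpl11, siNT, siDux and siRpl14+siDux libraries. From its name, siDux is read as an siRNA against Dux. Set 2, a further group of 4 libraries in the first table, is set apart by the style of its titles alone and holds 1 siRpl14 and 1 siNT library that no test used. The labels do not say whether replicates came from separate cultures; the p-values therefore reflect the spread among these libraries alone, and that may be technical.

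Rpl14 and Rpl11 both belong to the large subunit of the cytosolic ribosome. Cells that cannot finish a ribosomal subunit are known to accumulate free Rpl11, which with Rpl5 binds Mdm2, the ubiquitin ligase that keeps p53 low, so that losing another large-subunit protein raises p53 through Rpl11. Depleting Rpl11 itself also interrupts the same subunit. Embryonic stem cells in leukemia inhibitory factor hold naive pluripotency genes such as Klf4 and Nanog, and pass to a primed, epiblast-like state marked by Otx2 and Dnmt3b. The question set by the design is what the second siRNA changes in cells that already lack Rpl14.

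The values are FPKM (fragments scaled by transcript length and library size) for 24819 genes named by symbol. Absolute depth is unknown because the deposited values carry no counts. Genes listed at 0 made up 30.1 to 32.1% of each library of the first table and 50.5 to 56.2% in set 3, where the 10th percentile of values above 0 was 1.08 to 1.604 FPKM, against 0.0538 to 0.0821 FPKM in the first table. Replicates correlated across genes at 0.975 to 0.978 in set 1 and 0.809 to 0.853 in set 3 (Pearson's r on log2 values; genes are not independent replicates). The defining genes of embryonic stem cells summed to 6256 to 6360 FPKM in the combined knockdown, 5622 to 6150 FPKM in siRpl14 and 8102 to 9007 FPKM in siNT. Markers of fibroblast feeders summed to 4.96 to 6.80 FPKM in the combined knockdown and 5.56 to 9.85 FPKM in siRpl14, with Postn at 0. Their sum was higher in siNT, at 18.2 to 18.8 FPKM. Endothelial and blood markers summed to 1.03 to 1.24 FPKM in the combined knockdown and 0.693 to 1.58 FPKM in siRpl14, with Ptprc and Hbb-bh1 at 0. They summed to 1.93 to 2.40 FPKM in siNT.

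The targets come first, because they check the labels. Rpl11 stood at 98.4 and 249 FPKM in the combined knockdown, against 681 and 624 FPKM in siRpl14. Both combined libraries lie below both siRpl14 libraries, at 13.2% and 33.4% of the siNT mean, and the difference was -2.05 ± 0.46 on the log2(FPKM + 1) scale (SE; limma with Benjamini-Hochberg adjustment, adjusted p = 0.0387). That call was lost in 5 of 8 fits that each left out a library, namely those without combined replicate 1, either siRpl14 library or either siNT library; the estimate ranged from -2.71 to -1.38. Rpl14 stood at 232 and 524 FPKM in the combined knockdown, against 893 and 402 FPKM in siRpl14, which is 15.6% and 35.3% of the siNT mean against 60.2% and 27.1%. The Rpl14 libraries of these groups overlap, and the difference of -0.78 ± 0.42 did not pass the test (adjusted p = 0.316). In set 3, Rpl11 was at 199 FPKM in the combined knockdown, against 736 and 698 FPKM in siRpl14, and Rpl14 at 217 FPKM against 329 and 302 FPKM. Replicates thus kept unequal amounts of each target, and the part of that in the results below was not tested.

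Adding siRpl11 to siRpl14 lowered far more genes than it raised. Of 12129 genes tested in set 1 (those that reached 1 FPKM in 2 or more libraries), 802 (6.61%) were lower in the combined knockdown and 76 (0.627%) were higher at an adjusted p under 0.05. Together that is 7.24% of genes, and 2752 (22.7%) had an unadjusted p under 0.05. The difference was at least 2-fold for 268 of the genes that fell (2.21%) and for 14 of those that rose (0.115%). Among the 802, 123 had reached the 1 FPKM minimum only through the siRpl14 libraries, so those genes could enter the test in 1 direction only. The median difference of all genes was -0.09; with median-ratio rescaling, which moved that median to 0.02, 157 genes were higher and 461 lower, and with quantile normalization, at 0.03, 106 were higher and 357 lower. Higher calls thus made up 8.66% of the calls on the deposited scale, 25.4% with median-ratio rescaling and 22.9% with quantiles matched. The count of 878 fell to 138 without combined replicate 1, to 394 without combined replicate 2, to 79 without siRpl14 replicate 2, and to 497 and 493 without siNT replicates 1 and 2. A fit of the 4 compared libraries alone called 88.

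The combined knockdown was also set against siRpl11 alone, a comparison added after the data had been examined. No gene of 12129 (0%) passed the test between the combined knockdown and siRpl11 in limma, with 387 genes (3.19%) at an unadjusted p under 0.05. A difference of at least 2-fold, with no test, was seen in 16 genes higher and 10 lower, against 35 higher and 294 lower between the combined knockdown and siRpl14. Even Rpl14, whose 232 and 524 FPKM in the combined knockdown stood against 1465 and 1447 FPKM in siRpl11, was not called (-2.06 ± 0.42, unadjusted p = 0.0012), so the count of 0 does not show that nothing differed. Across 122 named genes, the median absolute difference between these groups was 0.18 on the log2 scale and the largest was 0.65, for Dusp2. These genes were picked through other comparisons and do not stand for all genes, over which this median was not computed. The count stayed at 0 under 13 of 15 other settings, and was 1 without either siNT library. No other tool was run for this comparison.

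The 15 named genes with the largest falls, chosen outside the lists of 2-cell-like (2C-like) genes and p53 targets, include secreted, membrane and lysosomal products. Sct, which encodes the gut hormone secretin, was at 1.77 and 1.18 FPKM in the combined knockdown, against 13.95 and 17.6 FPKM in siRpl14; siRpl11 gave 0.95 and 0.81 FPKM and siNT 2.93 and 1.42 FPKM. The siRpl14 libraries stand alone above the other 6. The difference was -2.76 ± 0.24 (adjusted p = 0.00209). Man2b1, a lysosomal alpha-mannosidase, was at 18.3 and 20.7 FPKM in the combined knockdown, against 75.3 and 85.2 FPKM in siRpl14, with siRpl11 at 15.6 and 14.4 FPKM and siNT at 18.6 and 17.4 FPKM (-1.99 ± 0.12, adjusted p = 0.000961). Gpx3, the secreted glutathione peroxidase, was at 22.4 and 18.7 FPKM in the combined knockdown, against 68.9 and 82.8 FPKM in siRpl14; siNT gave 13.6 and 10.5 FPKM. Here the combined libraries lie below siRpl14 and above siNT.

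The same shape was seen in Cpz, a carboxypeptidase, at 2.09 and 1.74 FPKM in the combined knockdown against 12.6 and 15.3 FPKM in siRpl14. Matn1, a cartilage matrix protein, was at 3.03 and 3.51 FPKM in the combined knockdown and at 15.8 and 18.3 FPKM in siRpl14. Slc4a11, a membrane transporter, was at 10.95 and 11.5 FPKM against 38.7 and 54.2 FPKM. Rgs14, Apol8, Ms4a10, Rtkn, Aldh1l1 and Ano3 also fell by 1.84 to 2.19 on the log2 scale. The choice of the 15 genes required that combined and siRpl14 libraries not overlap, so their separation is not a finding. Of all genes, 36.3% had both combined libraries below both siRpl14 libraries. Hist1h1c, a linker histone, took another course: it was at 5.53 and 8.47 FPKM in the combined knockdown, against 27.5 and 36.5 FPKM in siRpl14 and 30.0 and 22.2 FPKM in siNT, so that it fell well below the siNT libraries. Its level in siRpl11 was also low, at 9.07 and 10.3 FPKM. Ap1m2, an epithelial clathrin adaptor subunit, likewise ended under siNT, at 1.14 and 2.88 FPKM in the combined knockdown against 11.1 and 7.62 FPKM in siRpl14 and 7.98 and 6.13 FPKM in siNT. Of these 15 genes, 12 kept their call in every fit with a library left out in which they were tested, though Rgs14 was not tested without either siRpl14 library; Ano3, Ap1m2 and Cyr61 lost it, at adjusted p up to 0.168, in all cases without siRpl14 replicate 2 among others.

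**Figure D1:**
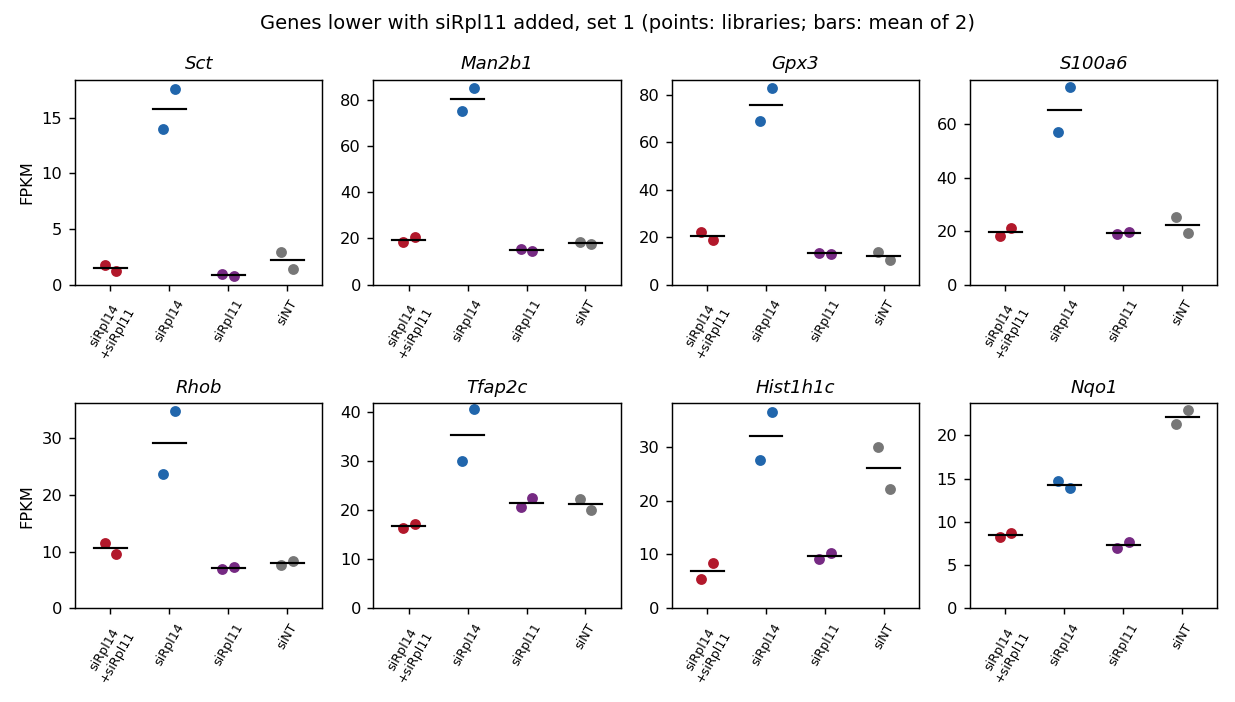
FPKM of 8 genes that fell in set 1, with 1 point per library, a bar at the mean of 2 libraries and the groups siRpl14+siRpl11, siRpl14, siRpl11 and siNT from left to right. The siRpl14 libraries stand above all others for Sct, Man2b1, Gpx3, S100a6, Rhob and Tfap2c, whereas Nqo1 is highest in siNT and Hist1h1c is high in both siRpl14 and siNT.

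Many genes of epithelial junctions, keratins and basement membrane were lower. Of 40 members tested out of 52, 18 fell, none rose and 22 did not pass, against 6.61% of all genes lower. This count, those of the lists below and the 6.61% all include genes that reached the 1 FPKM minimum only through siRpl14. Such genes could enter the test in 1 direction only. Krt7, Lgals6, Dhh, Nlrc5 and Hspa1a are among them, and no list was counted without them. A fitted difference below 0 was seen in 38, with a median of -0.55, against -0.09 for all genes. The list median was -0.41 without combined replicate 1 and -0.84 without combined replicate 2. Krt7, a keratin of simple epithelia, was at 0.69 and 0.39 FPKM in the combined knockdown, against 3.24 and 4.85 FPKM in siRpl14 (-1.70 ± 0.21, adjusted p = 0.00648). Sfn, a 14-3-3 protein of epithelia that is also a p53 target, was at 4.31 and 7.72 FPKM in the combined knockdown and at 21.7 and 36.8 FPKM in siRpl14. Pkp3, a desmosome plaque protein, was at 1.18 and 1.92 FPKM in the combined knockdown, against 5.35 and 5.55 FPKM in siRpl14. In Pkp3 the combined libraries also lie below siNT, which gave 2.85 and 2.85 FPKM.

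Trophectoderm genes partly share that list. Of 20 tested out of 31, 5 fell and none rose, against 6.61% of all genes lower, with a median of -0.55, or -0.25 without siRpl14 replicate 2. Tfap2c, a transcription factor of trophectoderm and germ cells, was at 16.3 and 17.1 FPKM in the combined knockdown, against 29.9 and 40.5 FPKM in siRpl14, with siNT at 22.3 and 20.004 FPKM. Krt8, the partner of Krt18 in simple epithelia, was at 2.87 and 2.22 FPKM against 6.79 and 12.97 FPKM, and Lgals3, a galectin, at 12.8 and 16.1 FPKM against 26.4 and 23.7 FPKM. The 5 defining markers of trophectoderm (Cdx2, Eomes, Gata3, Elf5 and Krt7) summed to 2.84 to 3.75 FPKM in the combined knockdown and 6.61 to 11.7 FPKM in siRpl14. Elf5 was at 0 in the combined knockdown, and of the 3 tested Krt7 alone fell. In set 3 the sum went the other way, at 3.70 FPKM in the combined library against 1.31 to 2.79 FPKM in siRpl14. Krt7 was at 0 in both of those groups. In bulk RNA, fewer cells of a type and less RNA per cell cannot be told apart, and the part of such cells in these results was not tested. Without siRpl14 replicate 2, 5 of these 6 named genes (Pkp3, Sfn, Tfap2c, Krt8 and Lgals3) lost their calls (adjusted p = 0.0544 to 0.0822), and without combined replicate 1, 3 did (adjusted p up to 0.109). Krt7 passed the 1 FPKM minimum through the siRpl14 libraries alone and was not tested without either of them, so how its call holds without them is unknown.

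Annexins, S100 proteins and galectins are small calcium- and membrane- or sugar-binding proteins. Of 21 members tested out of 39, 8 fell and none rose, against 6.61% of all genes lower. All 21 fitted differences were below 0, as were 7769 of 12129 over all genes; their median was -0.61, and -0.38 without combined replicate 1. S100a6 was at 18.4 and 21.3 FPKM in the combined knockdown, against 56.9 and 73.8 FPKM in siRpl14; siRpl11 gave 18.8 and 19.7 FPKM and siNT 25.1 and 19.22 FPKM (-1.66 ± 0.17, adjusted p = 0.00394). Anxa3 was at 1.32 and 1.09 FPKM in the combined knockdown and 4.26 and 8.52 FPKM in siRpl14. Anxa5, which binds exposed phosphatidylserine, was at 3.73 and 3.89 FPKM in the combined knockdown, against 6.75 and 7.47 FPKM in siRpl14 and 9.75 and 10.1 FPKM in siNT, with siRpl11 lower still at 2.66 and 2.396 FPKM. S100a6 kept its call without any single library; Anxa3, Anxa5 and Lgals6 lost theirs without combined replicate 1 (adjusted p up to 0.0964), and of the 3 tested without siRpl14 replicate 2 Anxa5 lost its call (adjusted p = 0.102).

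Immediate early genes, which cells switch on within minutes of a growth or stress signal, fell in 11 of 34 tested members and rose in none, against 6.61% of all genes lower, with a median of -0.49. Dusp2, a phosphatase that removes the activating phosphates of MAP kinases, was at 1.91 and 1.64 FPKM in the combined knockdown, against 6.09 and 10.1 FPKM in siRpl14 (-1.68 ± 0.22, adjusted p = 0.0076). Rhob, an inducible small GTPase, was at 11.6 and 9.68 FPKM in the combined knockdown, against 23.6 and 34.8 FPKM in siRpl14 and 7.60 and 8.37 FPKM in siNT. Junb, a subunit of the AP-1 transcription factor, was at 18.9 and 23.01 FPKM against 37.0 and 37.3 FPKM, and Fos, its usual partner, at 2.68 and 2.27 FPKM against 4.504 and 6.14 FPKM. In all 4 genes the siRpl14 libraries were the highest of set 1. Cyr61, a secreted matrix-bound protein, was at 14.3 and 7.43 FPKM in the combined knockdown, against 24.6 and 61.2 FPKM in siRpl14 and 4.31 and 4.11 FPKM in siNT. Its siRpl14 libraries differ from each other by more than the gap between the nearest libraries of these groups. Dusp2 and Rhob kept their calls without any single library, whereas Junb, Fos, Atf3, Btg2 and Cyr61 lost theirs without combined replicate 1 (adjusted p = 0.0602 to 0.149) and without siRpl14 replicate 2 (adjusted p = 0.0754 to 0.168).

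Promoters of 6 of the 11 immediate early genes that fell are shown; letters are from RefSeq on GRCm38.p6, the 250 bases before the annotated start, 5′ to 3′ on the gene's strand. All 11 genes that fell were matched by symbol or synonym. Capitals mark the shorter form of the cyclic AMP response element, TGACG on either strand, and in Btg2 the full palindrome TGACGTCA, which contains it. Fos, Junb and Cyr61 are shown as genes with values above, and so are Dusp2 and Rhob, which hold neither form and so have no capitals. Btg2, an antiproliferative immediate early gene that is also a p53 target, is given because it holds the full element, so its choice followed from its sequence; it was at 38.2 and 28.3 FPKM in the combined knockdown, against 64.2 and 97.5 FPKM in siRpl14.

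Dusp2 (chr2:127335909-127336158, strand +): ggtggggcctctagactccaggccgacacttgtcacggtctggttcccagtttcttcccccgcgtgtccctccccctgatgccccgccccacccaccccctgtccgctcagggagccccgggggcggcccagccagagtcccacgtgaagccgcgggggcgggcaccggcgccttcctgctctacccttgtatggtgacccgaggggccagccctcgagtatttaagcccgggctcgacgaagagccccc
Rhob (chr12:8500010-8500259, strand −): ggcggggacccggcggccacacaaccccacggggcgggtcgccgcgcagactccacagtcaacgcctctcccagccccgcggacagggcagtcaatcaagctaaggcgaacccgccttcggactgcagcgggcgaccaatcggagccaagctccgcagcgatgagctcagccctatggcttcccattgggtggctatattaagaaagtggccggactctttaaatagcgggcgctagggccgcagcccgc
Fos (chr12:85473640-85473889, strand +): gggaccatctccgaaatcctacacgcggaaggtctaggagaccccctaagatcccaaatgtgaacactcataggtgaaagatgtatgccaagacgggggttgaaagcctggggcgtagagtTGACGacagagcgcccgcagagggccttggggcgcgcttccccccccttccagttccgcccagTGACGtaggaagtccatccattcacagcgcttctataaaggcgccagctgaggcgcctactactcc
Junb (chr8:84978749-84978998, strand −): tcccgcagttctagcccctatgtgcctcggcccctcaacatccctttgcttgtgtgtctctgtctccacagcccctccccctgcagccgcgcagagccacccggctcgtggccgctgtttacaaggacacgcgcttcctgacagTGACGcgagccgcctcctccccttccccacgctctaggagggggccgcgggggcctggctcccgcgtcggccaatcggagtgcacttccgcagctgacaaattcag
Btg2 (chr1:134079156-134079405, strand −): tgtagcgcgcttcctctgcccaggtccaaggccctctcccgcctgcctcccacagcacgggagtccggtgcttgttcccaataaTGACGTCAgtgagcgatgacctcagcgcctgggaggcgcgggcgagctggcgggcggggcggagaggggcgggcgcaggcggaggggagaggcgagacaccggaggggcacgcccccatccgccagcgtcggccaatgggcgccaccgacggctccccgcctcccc
Cyr61, as Ccn1 (chr3:145649986-145650235, strand −): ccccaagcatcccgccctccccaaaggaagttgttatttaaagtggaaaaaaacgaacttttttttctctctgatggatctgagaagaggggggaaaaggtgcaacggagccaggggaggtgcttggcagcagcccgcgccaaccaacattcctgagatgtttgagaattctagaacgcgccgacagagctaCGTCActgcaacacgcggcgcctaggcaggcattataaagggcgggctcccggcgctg

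The full element TGACGTCA was found in 1 of the 11 windows and in 1.77% of the 27025 genes with a promoter in the RefSeq table. The shorter form, added after the sequences had been seen, was found in 7 of 11 and in 19.8% of those 27025 genes. The AP-1 motif TGANTCA was in none of the 11 and in 7.82% of the 27025, and the CArG box was in none and in 1.62%. These RefSeq genes were not limited to the genes tested here, and the shares over tested genes were not counted. A match is a description of letters, and no match says only that these letters are not in this window.

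Genes known to respond to YAP and to the actin-sensing factor SRF showed 5 falls and no rise among 36 tested, against 6.61% of all genes lower, with a median of -0.31, or -0.20 without siRpl14 replicate 2. Cnn2, an actin-binding calponin, was at 11.6 and 11.7 FPKM in the combined knockdown, against 22.5 and 26.6 FPKM in siRpl14 and 13.9 and 12.8 FPKM in siNT (-1.01 ± 0.12, adjusted p = 0.0051). Tpm1, a tropomyosin, was at 28.9 and 29.0 FPKM against 46.8 and 67.4 FPKM. Amotl1, which holds YAP in the cytoplasm, was at 2.69 and 3.06 FPKM against 5.80 and 8.09 FPKM. Of Cnn2, Amotl1, Tpm1 and Cyr61, Cnn2 alone kept its call without any single library; without siRpl14 replicate 2 the other 3 were at adjusted p of 0.0906 to 0.168, and without combined replicate 1 at 0.0683 to 0.103.

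Among the genes that rose, Ptch1 and Fzd7 stood near their siNT level in siRpl14 cells. Ptch1, the Hedgehog receptor and itself a target of the pathway, was at 47.3 and 42.2 FPKM in the combined knockdown, against 22.8 and 19.998 FPKM in siRpl14; siRpl11 gave 39.1 and 39.3 FPKM and siNT 21.7 and 22.5 FPKM. The combined and siRpl11 libraries lie together above the other 4, and the rise was 1.03 ± 0.11 (adjusted p = 0.00395). Fzd7, a WNT receptor of embryonic stem cells, was at 61.3 and 45.1 FPKM in the combined knockdown, against 25.3 and 25.5 FPKM in siRpl14 and 27.4 and 35.1 FPKM in siNT (1.02 ± 0.20, adjusted p = 0.0243). Myrf, a membrane-bound transcription factor, was at 42.2 and 32.0 FPKM against 17.3 and 15.0 FPKM. Zcwpw1, a reader of histone methylation, was at 44.0 and 32.8 FPKM against 16.9 and 20.01 FPKM.

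In others the siRpl14 libraries were below siNT. Fgf15, a secreted fibroblast growth factor, was at 24.2 and 16.3 FPKM in the combined knockdown, against 8.24 and 4.61 FPKM in siRpl14 and 15.3 and 15.2 FPKM in siNT; its rise of 1.54 ± 0.26 was the largest of the named rises (adjusted p = 0.016). Car14, a carbonic anhydrase, was at 7.06 and 9.55 FPKM in the combined knockdown, against 3.01 and 1.94 FPKM in siRpl14 and 4.05 and 5.26 FPKM in siNT. In others again siRpl14 had already lifted the gene. Vrtn, a gene tied to vertebra number in pigs, was at 10.6 and 7.21 FPKM in the combined knockdown, against 2.21 and 3.59 FPKM in siRpl14 and 0.68 and 0.59 FPKM in siNT. Glod5, Tmem98 and Map7d3 rose by 0.99 to 1.17. Of the 10 rises named here, Ptch1 alone kept its call without any single library; 8 lost it without combined replicate 1 (adjusted p up to 0.197) and 8 without siRpl14 replicate 2 (adjusted p up to 0.163), and either siNT library cost 2 calls.

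Of 24 naive pluripotency genes tested, 4 fell (Klf4, Jam2, Manba and Prdm14) and none rose, against 6.61% of all genes lower, with a median of -0.46, or -0.26 without combined replicate 1. Of 28 core pluripotency genes, Nanog alone passed the test. Nanog was at 121 and 182 FPKM in the combined knockdown, against 270 and 237 FPKM in siRpl14; siRpl11 gave 227 and 191 FPKM and siNT 349 and 378 FPKM (-0.77 ± 0.19, adjusted p = 0.0489). Klf4, a factor that leukemia inhibitory factor sustains, was at 27.7 and 34.8 FPKM in the combined knockdown, against 46.2 and 49.5 FPKM in siRpl14 and 77.3 and 78.0 FPKM in siNT (-0.61 ± 0.13, adjusted p = 0.0299). Jam2, a junctional adhesion molecule of naive cells, was at 15.0 and 14.2 FPKM against 24.5 and 33.1 FPKM in siRpl14 and 34.4 and 49.7 FPKM in siNT. In all 3 genes the siRpl14 libraries lie between the combined knockdown and siNT. Manba and Prdm14 fell too, by 0.94 and 0.68 on the log2 scale.

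Of 22 primed epiblast genes tested, 5 rose (Otx2, Dnmt3a, Dnmt3b, Fgf15 and Sox11) and 1 fell, against 0.627% and 6.61% of all genes, with a median of 0.44. Otx2, the homeobox factor of the primed epiblast, was at 101 and 83.02 FPKM in the combined knockdown, against 43.9 and 52.2 FPKM in siRpl14; siRpl11 gave 91.8 and 105 FPKM and siNT 9.17 and 12.6 FPKM (0.92 ± 0.17, adjusted p = 0.0206). Dnmt3b, a DNA methyltransferase, was at 78.7 and 65.9 FPKM against 43.5 and 36.7 FPKM in siRpl14 and 24.4 and 27.1 FPKM in siNT (0.84 ± 0.13, adjusted p = 0.0118). Sox11 was at 6.71 and 5.398 FPKM in the combined knockdown and 2.71 and 2.86 FPKM in siRpl14, and Pax6, which stands in the neural list, at 5.28 and 3.98 FPKM against 2.13 and 1.30 FPKM. The primed gene that fell, Cldn6, is an epithelial claudin. Pou5f1 was at 1086 and 948 FPKM in the combined knockdown and 815 and 881 FPKM in siRpl14, and Sox2 at 256 and 294 FPKM against 272 and 288 FPKM; neither passed the test (adjusted p = 0.240 and 0.910). Esrrb, at 80.6 and 130 FPKM against 180 and 140 FPKM, and Zfp42, at 186 and 300.5 FPKM against 440 and 323 FPKM, did not pass either (adjusted p = 0.137 and 0.125). All 10 named calls (Nanog, Klf4, Jam2, Manba, Prdm14, Otx2, Dnmt3b, Sox11, Fgf15 and Pax6) were lost without combined replicate 1 (adjusted p = 0.0802 to 0.282) and without siRpl14 replicate 2 (adjusted p = 0.0781 to 0.172).

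**Figure D2:**
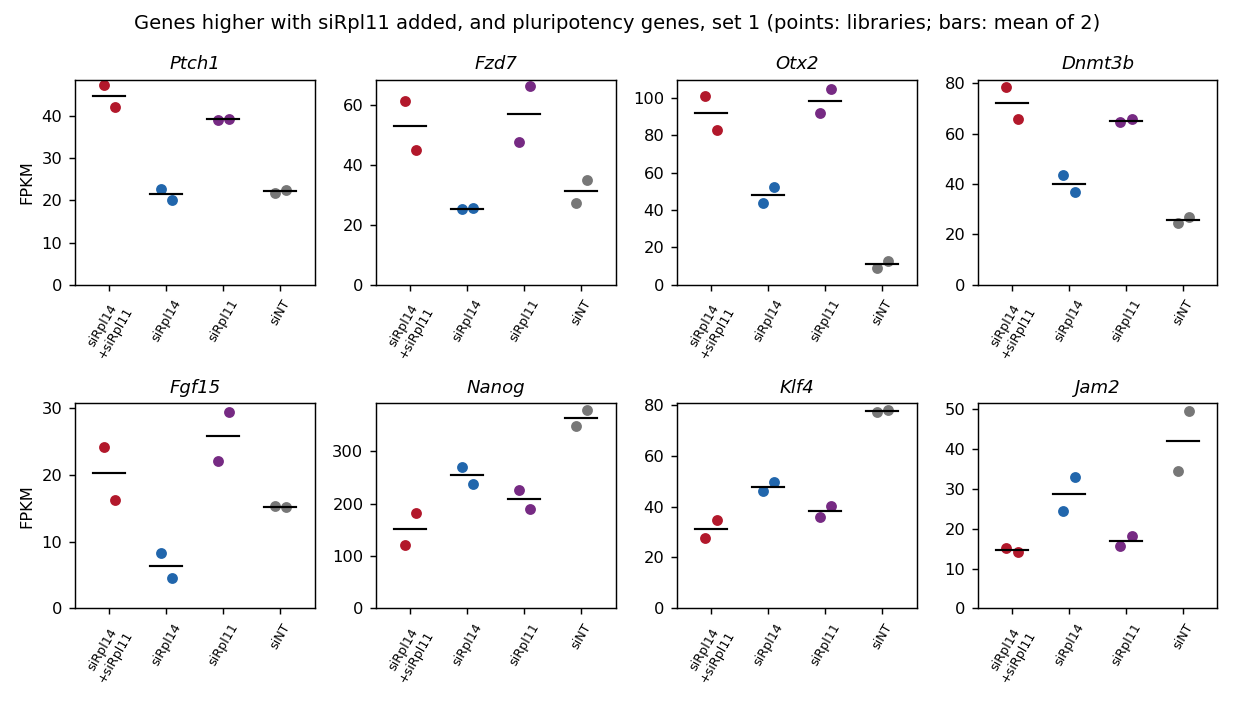
FPKM of 5 genes that rose (Ptch1, Fzd7, Otx2, Dnmt3b and Fgf15) and 3 pluripotency genes that fell in set 1, with 1 point per library and a bar at the mean of 2, groups as labelled from left to right. The combined knockdown and siRpl11 lie at similar levels in Ptch1, Fzd7, Otx2, Dnmt3b and Jam2, and siNT is highest for Nanog, Klf4 and Jam2.

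The WNT and the Notch and Hedgehog lists held calls in both directions. In the WNT list, 2 of 29 tested members rose and 4 fell, against 0.627% and 6.61% of all genes: the receptors Fzd7 and Fzd2 were higher, Fzd2 at 13.9 and 10.2 FPKM in the combined knockdown against 5.61 and 6.09 FPKM in siRpl14. The ligands Wnt6 and Wnt9a were lower, Wnt6 at 1.43 and 1.51 FPKM against 4.08 and 5.29 FPKM. Axin2, the feedback inhibitor that WNT signalling induces, was at 2.68 and 3.49 FPKM in the combined knockdown and 5.51 and 7.28 FPKM in siRpl14. In the Notch and Hedgehog list, Ptch1 rose and 5 of 24 fell, against the same shares of all genes, among them the ligand Dhh at 0.27 and 0.14 FPKM against 1.13 and 1.67 FPKM. Notch3, a receptor, was at 11.6 and 10.7 FPKM in the combined knockdown against 20.3 and 23.9 FPKM, and Nrarp, a feedback inhibitor of Notch, at 2.83 and 3.35 FPKM against 5.50 and 7.58 FPKM. In the bone morphogenetic protein list Bmp7 was at 1.07 and 1.72 FPKM against 4.29 and 5.17 FPKM in siRpl14 and 3.97 and 3.44 FPKM in siNT; Gdf15 also fell and the co-receptor Rgma rose. Of 12 genes named in these lists, Ptch1 kept its call in all 8 fits that left out a library, and Dhh, which passed the 1 FPKM minimum through the siRpl14 libraries alone, was not tested without either of them; 10 lost them without combined replicate 1 (adjusted p up to 0.265) and 10 without siRpl14 replicate 2 (adjusted p up to 0.208).

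The stress and detoxification lists held few calls, read against 6.61% of all genes lower and 0.627% higher. In the oxidative and metal stress list 3 of 33 fell, near that share: Nqo1, a quinone reductase induced by Nrf2, was at 8.30 and 8.68 FPKM in the combined knockdown, against 14.7 and 13.9 FPKM in siRpl14 and 21.3 and 22.9 FPKM in siNT (-0.69 ± 0.11, adjusted p = 0.0128). Srxn1, a sulfiredoxin under the same factor, was at 10.2 and 12.1 FPKM against 20.1 and 18.2 FPKM in siRpl14 and 21.9 and 23.6 FPKM in siNT. Gsto1, a glutathione transferase, was lower, at 34.2 and 28.5 FPKM against 45.0 and 54.0 FPKM, with siNT at 25.7 and 21.5 FPKM. Of 43 integrated stress response genes, Cars, a cysteinyl-tRNA synthetase, and Atf3 fell, and Slc7a3, a cationic amino acid transporter, rose to 138 and 138 FPKM in the combined knockdown against 102 and 80.5 FPKM in siRpl14. In the endoplasmic reticulum list 2 of 27 fell, also near that share, the chaperone Hspa5 at 114 and 139 FPKM against 189 and 173 FPKM and Pdia3 at 96.3 and 99.9 FPKM against 142 and 158 FPKM. In the heat shock list 4 of 26 fell, among them the small heat shock proteins Cryab, by 1.46 on the log2 scale, and Hspb8, by 1.198. All 12 genes named from these lists (with Hspa1a and Hspa1b) lost their calls without combined replicate 1 (adjusted p = 0.0715 to 0.276), and all 11 that were tested without siRpl14 replicate 2 lost theirs (adjusted p = 0.0741 to 0.193).

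Ribosome and growth genes gave few calls, against 7.24% of all genes called. None of 47 large-subunit ribosomal protein genes and 1 of 33 small-subunit ones passed the test; the targets were left out of these lists. Their medians were 0.20 and 0.19 as deposited, and 0.02 and -0.01 after quantile normalization, so their direction depends on the scaling. Rps2 was at 4672 and 4338 FPKM in the combined knockdown, against 3209 and 2876 FPKM in siRpl14 (0.57 ± 0.13, adjusted p = 0.0416). Of 80 ribosome assembly genes the nucleolar GTPase Gnl3 was higher, at 168 and 161 FPKM against 126 and 127 FPKM, and of 14 RNA polymerase I genes the subunit Polr1e was lower, at 11.5 and 11.8 FPKM against 17.5 and 19.9 FPKM. Mcm5, of the replicative helicase, was at 280.2 and 278 FPKM against 223 and 197 FPKM, and Cdt1, which loads it, at 79.9 and 79.1 FPKM against 62.6 and 52.5 FPKM, 2 of 60 replication genes. No call was made among 43 translation factor, 76 mitochondrial ribosomal protein, 75 respiratory chain, 34 proteasome or 55 mitosis genes in limma; their median differences lay between 0.02 and 0.14. The 5 calls named here were all lost without combined replicate 1 (adjusted p = 0.126 to 0.277), without combined replicate 2 (0.0715 to 0.140) and without siRpl14 replicate 2 (0.132 to 0.202).

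Lysosome and autophagy genes had 5 falls among 58 tested, near the 6.61% of all genes. Gaa, the acid alpha-glucosidase, was at 15.5 and 20.2 FPKM in the combined knockdown, against 38.0 and 43.2 FPKM in siRpl14 and 26.6 and 23.8 FPKM in siNT. Ulk1, the kinase that starts autophagy, was at 21.8 and 32.2 FPKM against 47.7 and 47.9 FPKM in siRpl14 and 66.8 and 63.9 FPKM in siNT. In the interferon and antigen presentation list 4 of 31 fell: Tap1, a peptide transporter, was at 6.51 and 4.87 FPKM against 12.3 and 19.22 FPKM in siRpl14 and 3.05 and 1.87 FPKM in siNT, whereas B2m, the light chain of class I molecules, was at 9.98 and 16.4 FPKM against 24.3 and 25.1 FPKM in siRpl14 and 51.3 and 43.0 FPKM in siNT. Ctsh, Atg9b, Tap2 and Nlrc5 fell too. Of these 8 genes, 7 lost their calls without combined replicate 1 (adjusted p up to 0.239), and 6 did without either siNT library. All 7 that were tested without siRpl14 replicate 2 lost theirs (adjusted p = 0.0727 to 0.185).

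Several other lists held few calls, read against 6.61% of all genes lower and 0.627% higher. Falls numbered 1 of 37 tested members for glycolysis and hypoxia, 2 of 36 for cell death and 1 of 19 for NF-kB and cytokines. They numbered 2 of 35 for germline genes and 1 of 7 for endothelial and blood markers. The NF-kB and germline lists also held 1 rise each. Pfkfb4, which sets the rate of glycolysis, was at 1.81 and 1.601 FPKM in the combined knockdown, against 5.71 and 6.92 FPKM in siRpl14 (-1.43 ± 0.15, adjusted p = 0.00395), and kept its call without any single library. Bcl2l1, a survival factor, was at 25.1 and 25.4 FPKM against 37.6 and 48.8 FPKM, and Nfkb1 at 6.57 and 6.61 FPKM against 13.5 and 15.0 FPKM. Cxcl12, a chemokine, rose to 2.96 and 1.82 FPKM in the combined knockdown against 0.53 and 0.45 FPKM in siRpl14. The angiopoietin receptor Tek fell to 4.52 and 4.56 FPKM against 10.4 and 13.2 FPKM, and the meiotic cohesin Rec8 to 2.53 and 3.20 FPKM against 7.21 and 6.06 FPKM. In the 2C-like list 25 of 30 tested members fell, against 6.61% of all genes, with Zscan4d at 9.42 and 8.93 FPKM in the combined knockdown against 35.7 and 36.2 FPKM in siRpl14. Of 61 p53 targets 21 fell, against the same share of all genes, with Apaf1, the scaffold of the apoptosome, at 15.3 and 14.4 FPKM against 25.5 and 35.5 FPKM. Zscan4d kept its call without any single library, and Apaf1 lost its call in 3 of those fits (adjusted p up to 0.0816). Nfkb1 lost its call without siRpl14 replicate 2 (adjusted p = 0.0716), Rec8 without combined replicate 1 (adjusted p = 0.0718), and Cxcl12 and Tek without either of these libraries (adjusted p up to 0.0911). Bcl2l1 lost its call without combined replicate 1 or 2 or siRpl14 replicate 2 (adjusted p up to 0.106).

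**Figure D3:**
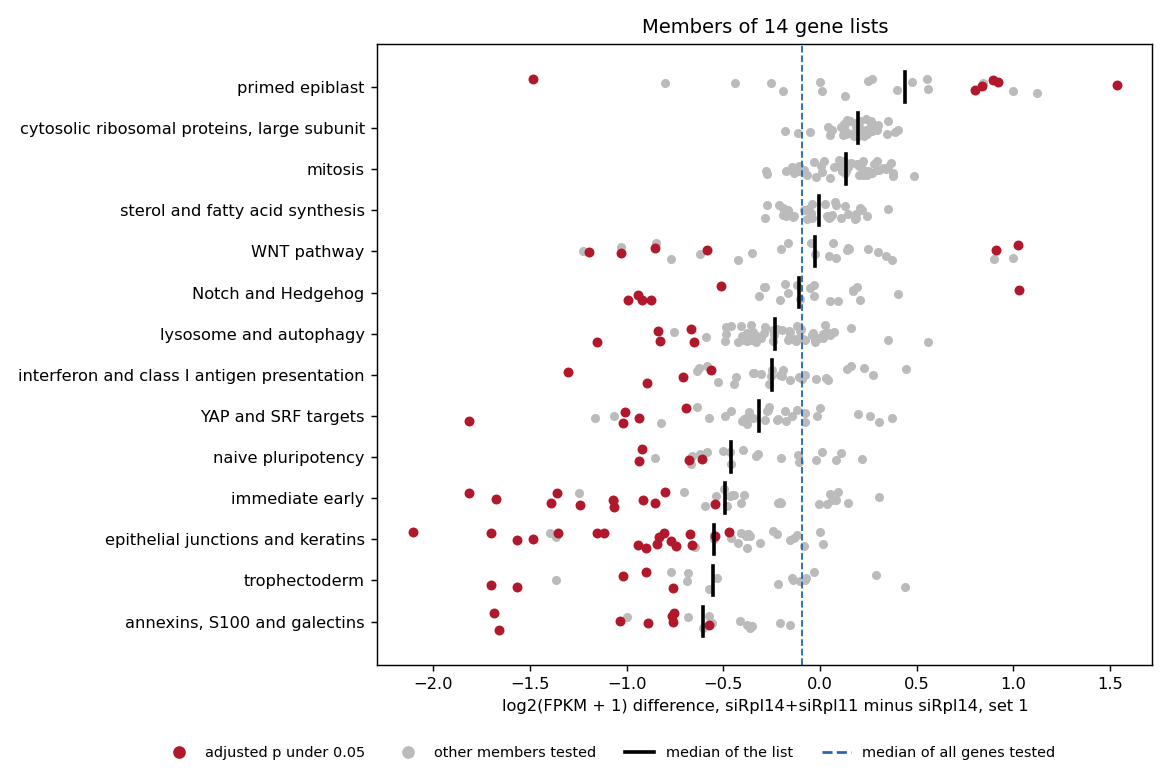
Difference in log2(FPKM + 1) between the combined knockdown and siRpl14 in set 1 for the tested members of 14 gene lists, 1 point per gene, red where the adjusted p was under 0.05, with a black bar at the median of each list and a dashed line at the median of all genes (-0.09). Every annexin, S100 and galectin gene lies below 0, and the primed epiblast list has its called members on both sides.

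The interaction asks whether siRpl11 changed a gene differently in siRpl14 cells and in siNT cells. It passed the test for 544 genes (4.49%), 222 higher (1.83%) and 322 lower (2.65%). A negative interaction means that the combined knockdown minus siRpl14 was below siRpl11 minus siNT, whichever way the gene moved. Mlana, an antigen of melanocytes, was at 7.71 and 7.62 FPKM in the combined knockdown, against 18.7 and 35.6 FPKM in siRpl14, and at 11.2 and 9.65 FPKM in siRpl11, against 2.81 and 1.38 FPKM in siNT (interaction -3.55, adjusted p = 0.0183). Each siRNA alone gave more Mlana than siNT, and both together no more than siRpl11 alone. Cdkn2b, an inhibitor of cyclin-dependent kinases, was at 4.16 and 4.78 FPKM in the combined knockdown, against 13.2 and 19.24 FPKM in siRpl14, and at 3.55 and 4.05 FPKM in siRpl11, against 1.03 and 1.08 FPKM in siNT (interaction -2.85, adjusted p = 0.0107). Otx2 had a negative interaction of -2.15 (adjusted p = 0.0146) although it rose in the main comparison: the siRpl11 libraries stood above siNT by more than the combined libraries stood above siRpl14. This count is not stable: it was 27 with the replicate number as a block and between 2 and 1199 when a library was left out, with 3 and 2 without siNT replicates 1 and 2, 6 without combined replicate 2, 20 and 27 without siRpl11 replicates 1 and 2, 36 without siRpl14 replicate 2 and 1199 without siRpl14 replicate 1. Mlana lost its interaction call in 4 of the 8 fits, Cdkn2b in 2 and Otx2 in 3, at adjusted p up to 0.101.

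Sterol and fatty acid synthesis genes, of which none of 34 passed the main test in limma, had 8 positive interactions, against 1.83% of all genes; the list was picked for this after its values were seen. Insig1, which holds the sterol sensor Scap in the endoplasmic reticulum, was at 14.9 and 21.6 FPKM in the combined knockdown, against 18.3 and 14.6 FPKM in siRpl14, and at 19.8 and 15.9 FPKM in siRpl11, against 53.6 and 55.6 FPKM in siNT (interaction 1.70, adjusted p = 0.0258). All 6 knockdown libraries lie together below siNT. Scd1, a fatty acid desaturase, was at 10.97 and 17.9 FPKM in the combined knockdown, 13.2 and 10.8 FPKM in siRpl14, 15.7 and 12.8 FPKM in siRpl11 and 33.5 and 43.9 FPKM in siNT. Msmo1, Srebf2, Cyp51, Lss and Pmvk also passed. All 7 genes named here lost their interaction calls without combined replicate 2, without siRpl14 replicate 2, without either siRpl11 library and without either siNT library, at adjusted p up to 0.160.

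Set 2 gave a check that shares no library with these contrasts. Of the 802 genes that fell in set 1, 721 (89.9%) were higher in the siRpl14 library than in the siNT library of set 2, against 50.5% of all 12129 genes, with a median difference of 0.84 against 0.01. The 802 include the 123 genes that reached the 1 FPKM minimum only through the siRpl14 libraries of set 1. Such genes were picked for a high siRpl14 level, and the share without them was not counted. Gpx3 was at 97.3 FPKM in siRpl14 and 9.22 FPKM in siNT there, S100a6 at 100.4 and 25.4 FPKM, and Rhob at 42.4 and 8.94 FPKM. The exceptions include Nanog, at 221 FPKM in siRpl14 and 449 FPKM in siNT, Nqo1 at 11.8 and 25.5 FPKM, and Hist1h1c at 34.5 and 42.8 FPKM. By list, siRpl14 was above siNT for 16 of the 18 epithelial genes that fell, 10 of 11 immediate early genes and 6 of 8 annexins, S100 proteins and galectins, and below it for all 4 naive genes. Of the 76 genes that rose, 41 (53.9%) were lower in siRpl14 than in siNT, against 49.4% of all genes. These are 1 library per group, with no replicate check.

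Set 3 gave the contrast itself a second time, with 1 combined library against 2 of siRpl14. In limma no gene of 13497 passed (0%), with 955 (7.08%) at an unadjusted p under 0.05. That fit took all 10 libraries of the set, those of siDux and siRpl14+siDux among them. It assumed that the lone library varies like the others. Of 718 genes that fell in set 1 and were tested there, 546 (76.0%) were lower in the combined library than the siRpl14 mean, against 54.7% of all 11280 genes in common. Genes that passed the minimum of set 1 only through siRpl14 were not removed from this share either. Of 69 that rose in set 1, 52 (75.4%) were higher, against 41.5% of all. Hist1h1c was at 5.99 FPKM in the combined library, against 55.3 and 51.2 FPKM in siRpl14, and Tfap2c at 1.58 FPKM against 19.7 and 26.4 FPKM. S100a6 was listed at 0 in the combined library, against 26.3 and 44.6 FPKM, and Man2b1 was at 5.14 FPKM against 28.4 and 18.96 FPKM. Ptch1 was at 36.1 FPKM in the combined library, against 18.3 and 17.1 FPKM, Fzd7 at 36.5 FPKM against 13.6 and 16.4 FPKM, and Otx2 at 28.4 FPKM against 18.5 and 16.3 FPKM. In these genes the lone library lies outside both siRpl14 libraries on the side seen in set 1. Jam2, at 6.64 FPKM against 18.9 and 19.8 FPKM, and Nanog, at 149 FPKM against 212 and 246 FPKM, did the same, as did Klf4 at 31.5 FPKM against 36.8 and 47.2 FPKM. Such positions are common: over all 11280 genes, the lone library was below both siRpl14 libraries for 35.5% and above both for 26.5%.

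Other genes went differently in set 3. Dnmt3b, at 20.5 FPKM in the combined library, and Car14, at 15.2 FPKM, lay between the siRpl14 libraries, which gave 27.4 and 17.2 FPKM for Dnmt3b and 25.2 and 14.5 FPKM for Car14. Pax6, at 14.8 FPKM against 31.0 and 24.2 FPKM, and Tnfrsf12a, at 5.17 FPKM against 2 libraries listed at 0, lay on the opposite side to set 1. Junb, which fell in set 1, lay above both siRpl14 libraries, and Gnl3, which rose, lay below their mean. Among genes that fell in set 1 and were tested, 3 of 11 immediate early and 3 of 17 epithelial genes were above the siRpl14 mean. The median of the epithelial list was -0.61 in set 3, of the naive list -0.73 and of the primed list 0.40. It was -0.51 for the YAP and SRF list, -0.71 for trophectoderm, -0.36 for annexins, S100 proteins and galectins and -0.26 for immediate early genes. All genes tested there had a median of -0.06. Other lists did not keep the sign of set 1, among them clustered histones (0.18 in set 1, -1.98 in set 3, where 15 members were tested). Primitive endoderm went from -0.33 to 0.09 and core pluripotency from 0.15 to -0.07. The integrated stress response list went from -0.13 to 0.02 and the interferon list from -0.25 to 0. Each set 3 value rests on 1 combined library.

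**Figure D4:**
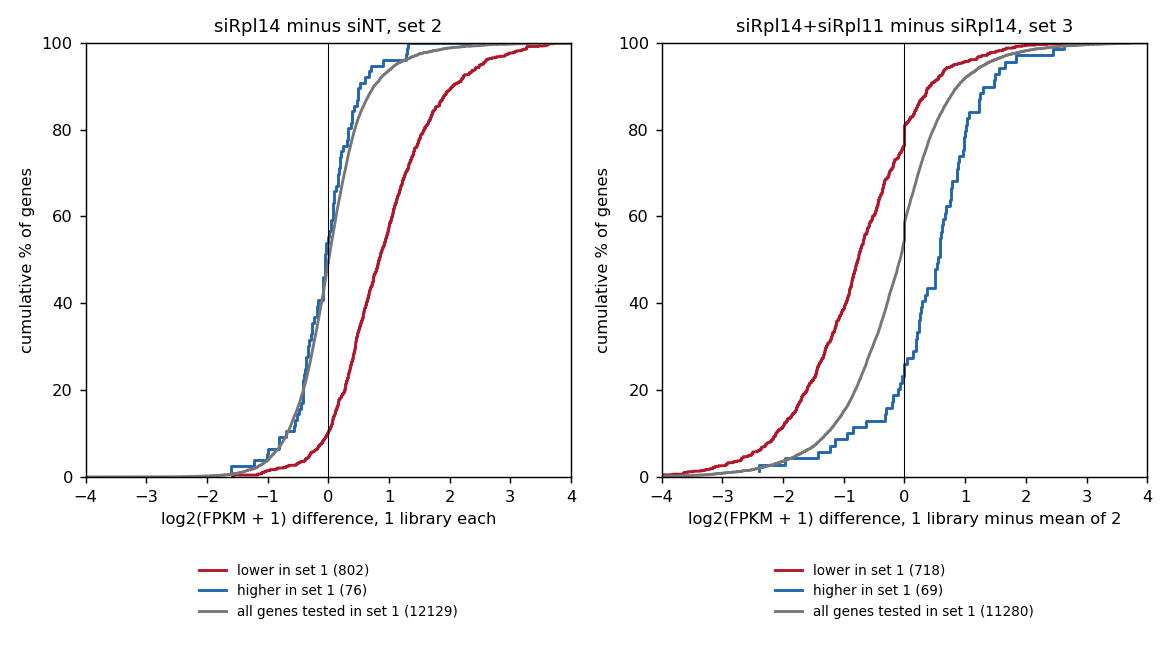
Cumulative percentage of genes by their log2(FPKM + 1) difference in libraries that the set 1 test did not use, for the genes lower in set 1, the genes higher in set 1 and all genes; the left panel is siRpl14 minus siNT in set 2 and the right panel siRpl14+siRpl11 minus siRpl14 in set 3. The curve of the genes lower in set 1 lies to the right of all genes in set 2, with a median of 0.84, and to the left of them in set 3, with a median of -0.76.

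Some of these measurements share reads or sequence with other genes. The strand setting of the counting is not given in the sources used here, and Cryab overlaps Hspb2, Hspa5 overlaps Rabepk, B2m overlaps Patl2, Pdia3 overlaps Catsper2, Cdkn2b overlaps Gm12610, Pax6 overlaps Pax6os1, Sox2 overlaps Sox2ot, Bcl2l1 overlaps Cox4i2, Slc7a3 overlaps Snx12, Car14 overlaps Aph1a, Zcwpw1 overlaps Pilra, Ano3 overlaps Muc15 and Rps2 overlaps small nucleolar RNA genes in the RefSeq annotation (GRCm38.p6). Zscan4d, Hspa1a, Hspa1b, Lgals6 and Hist1h1c belong to families with near-identical copies, and their values are uncertain for that reason.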

How the data were processed

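Messenger RNA of E14 mouse embryonic stem cells was sequenced as 22 stranded libraries, per the labels' protocols. The authors deposited FPKM values for 24819 genes in 2 tables; reads were aligned with STAR to mm9 and FPKM values made with Cuffnorm, per the submitters' processing notes. For versions, annotation, strand setting and normalization, the sources used here give nothing. Each test stays within a table, since scaling may differ between them. The tables hold no gene positions, and none are given.

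Sets 1 and 3 were each modelled in limma 3.58.1 (R 4.3.3, statmod 1.5.0; trended, robust moderation) on log2(FPKM + 1), a scale that understates changes of low genes, over genes that reached 1 FPKM in 2 or more libraries. All libraries of a set shared one estimate of the spread, and p-values were adjusted over all genes by the Benjamini-Hochberg method at 0.05. FPKM are given per library; errors of differences are SE. The steps were tested on simulated data. Set 2 was described without a test. The comparison with siRpl11 was added after the data were examined.

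The compared libraries and the 45 gene lists (1886 entries, 30 of them not in the tables) were chosen with earlier results of these data known. Named genes are the targets, the stem cell markers and genes picked by rule. The rule took the 12 largest rises and 15 largest falls among genes called. These had a mean of at least 5 FPKM in either group, libraries not overlapping and a place outside the 2C-like and p53 lists. It also took the 8 largest interactions under the same conditions. From each list it took up to 4 called genes by p (up to 2 by p where none was called). Not all named genes are described. Btg2, the sterol genes and other members named to complete a count of 5 or fewer were chosen after their values were seen. Groups whose libraries do not overlap are common: 14.7% of all genes had both combined libraries above, and 36.3% below, both siRpl14 libraries. Some genes that the rule selects are not reported here.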

Additional observations from a re-analysis of the deposited data

Results flagged for a closer look

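For 8 genes the effect of siRpl11 differed between siRpl14 cells and siNT cells by the interaction term of limma in set 1. They had the largest interactions among genes past the threshold with a mean of at least 5 FPKM in a group. The choice left out 2C-like genes, p53 targets and genes with clone or placeholder names, and required that combined and siRpl14 libraries not overlap. On the log2(FPKM + 1) scale the interaction was -3.55 for Mlana, -3.18 for Ms4a10, -2.93 for Cpz, -2.90 for Cyr61, -2.85 for Cdkn2b, -2.84 for Ltb4r2, -2.74 for Ltb4r1 and -2.63 for Apol8. All 8 values are negative. Both siRpl11 libraries lay above both siNT libraries. The choice by largest interaction favors that order, and the share of all genes with it was not counted. Both combined libraries lay below both siRpl14 libraries, as in 36.3% of all genes, where the choice had already excluded overlap. Ltb4r1 and Ltb4r2 encode the leukotriene B4 receptors; Ltb4r2 overlaps Cideb in the RefSeq annotation, and the strand setting of the counting is not given in the sources used here. Each of the 8 calls was lost without siNT replicate 2 (adjusted p = 0.057 to 0.121) and 7 of them without siNT replicate 1 (adjusted p = 0.0617 to 0.148). No group holds more than 2 libraries, so no single library was tested as an outlier.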

How the results depend on the processing

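The count of 878 genes between the combined knockdown and siRpl14 in set 1 was 491 with at least 5 FPKM in 2 libraries, 463 with quantile normalization, 539 with the replicate block and 88 in a fit of the 4 compared libraries, and 79 to 670 with a library left out. The interaction count of 544 was 313 with no filter, 264 with at least 5 FPKM, 27 with the replicate block and 2 to 1199 with a library left out. Deviations of same-numbered libraries correlated at r of -0.50 to -0.24 between the combined knockdown and the other groups (-0.49 with siRpl14) and at 0.18 to 0.50 among siRpl14, siRpl11 and siNT; the labels give no shared origin, so the numbers were not taken as pairs. With the numbers of the combined knockdown exchanged, an alternative chosen after seeing the data, the counts were 2288 and 3629. In set 3 the count of 0 became 36 with a pseudocount of 0.1, 2 with a pseudocount of 5, 1 with no filter, 3 with at least 5 FPKM, 2 with quantile normalization and 1 with the replicate block, and 0 without any single library (955 genes at an unadjusted p under 0.05). Of the genes lower in set 1, the share lower in set 3 was 80.6% at a mean of at least 5 FPKM and 56.7% when the lone library had to lie outside both siRpl14 libraries (35.5% of all genes); the share higher with siRpl14 in set 2 was 94.6% with median-ratio rescaling, 93.3% with quantile normalization and 87.2% at a mean of at least 5 FPKM. Sox2, at -0.03, turned to 0.11 with median-ratio rescaling and ranged from -0.126 to 0.0714 with a library left out (0.0125 without siRpl14 replicate 2), and Dppa5a, at 0.16, turned to -0.0189 with quantile normalization; neither was called. Of 118 named genes with a call, 26 kept it in every fit that left out a library and tested it, some of them untested without a siRpl14 library. The cause was not tested. With 2 libraries a group and no counts, changes of genes near 0 FPKM, and all of set 3, are weakly resolved.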
